A study of Mus musculus with 20 samples.

Results

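Cps1, the mitochondrial carbamoyl phosphate synthetase, was higher in enzalutamide-resistant than in treatment-naive prostate cancer cells, and the other enzymes of the urea cycle and of ornithine use were read in the same libraries. The set held 10 enzymes, chosen by mouse gene symbol: Cps1, Nags, Otc, Ass1, Asl, Arg1 and Arg2 of the urea cycle, and Oat, Odc1 and Sat1 of ornithine and polyamine metabolism. Of these, 8 had a row among the 17104 named genes of the expression tables. No row matched Otc or Nags here, so they were not analysed. Cps1 was put into the set because of its level in resistant tumours, so its values in the comparisons that showed this are a description and carry no test.

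The cells were MycCaP-Bo, a bone-selected derivative of the MycCaP line from a prostate tumour of a HiMyc mouse, on the FVB/N background. They carried a near-infrared fluorescent protein (iRFP) and luciferase, were injected into the heart of male FVB/N mice of 4 to 6 weeks, and were sorted from bone as CD45-negative, iRFP-positive cells, with 3 mice pooled into each library. Naive cells came from mice given vehicle, and Resist cells from mice given enzalutamide, an antiandrogen, at 30 mg/kg for 18 days. Resist-Mac cells came from enzalutamide-treated mice that also received clodronate liposomes, which deplete macrophages, at 1 mg a mouse during the last 4 days. Naive-Mac is the name used here for cells of depleted mice without enzalutamide, listed with the same clodronate dose of 1 mg a mouse and 4 days of depletion. Each of the 4 groups had 5 libraries. All come from 1 cell line, so the replicates are pools of hosts carrying the same line.

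In the urea cycle, carbamoyl phosphate made from ammonia by Cps1 is joined to ornithine by Otc to give citrulline, Ass1 and Asl convert citrulline to arginine, and an arginase releases urea and gives ornithine back. The complete cycle works mainly in liver. Outside it, ornithine is either taken to proline and glutamate through Oat, ornithine aminotransferase, or decarboxylated to putrescine by Odc1, ornithine decarboxylase, the entry into polyamine synthesis. Sat1 acetylates spermidine and spermine and so starts their breakdown and export. Prostate epithelium is known for its large output of polyamines.

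Some facts of the libraries bear on every value below. The values are FPKM (sequenced fragments of a gene scaled to transcript length and library size), and the depth of each library is unknown. Naive and Resist were in 1 table, Resist-Mac in another and Naive-Mac in the last, each numbered as its own batch. Only Resist vs. Naive lies within a numbered batch. Column names within Resist-Mac and within Naive-Mac also carry differing codes, whose meaning is unknown here. FPKM summed over the named genes to 481161 to 530961 in the Naive and Resist libraries, 617494 to 761510 in Resist-Mac and 882276 to 1040436 in Naive-Mac. In any comparison across tables, batch and group therefore cannot be told apart, and other scalings are given where they turned a direction or changed a call of an enzyme. The prostate epithelium genes Krt8 and Foxa1 were expressed, while Krt18 and Cdh1 stayed near 0, at group means up to 0.11 FPKM. The summed level of 10 neutrophil markers ranged from 61.5 to 1270.0 FPKM in the Naive and Resist libraries, from 406 to 8775 in Resist-Mac and from 58.8 to 6159 in Naive-Mac.

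One library stood apart from the others of its label. Of 529 genes that were higher in Resist than Naive and listed in the Naive-Mac table, the library labelled Naive-Mac replicate 2 had the highest value of the 5 Naive-Mac libraries in 341 (64.5%), while each of the other 4 was highest in 17 to 83. Its vimentin (Vim) level was 99.9 FPKM, against 9.88 to 32.7 in the other Naive-Mac libraries and 48.8 to 119 in Resist-Mac. It also had the lowest neutrophil sum, 58.8 FPKM against 761 to 6159 in the others. The 112 genes lower in Resist than Naive set it apart less. It was the lowest Naive-Mac library in 43 of them (38.4%), and replicate 1 was in 38 (33.9%). Whether the label of replicate 2 is right was not tested. The differences from Naive-Mac that the results turn on are also given without replicate 2.

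**Figure D1:**
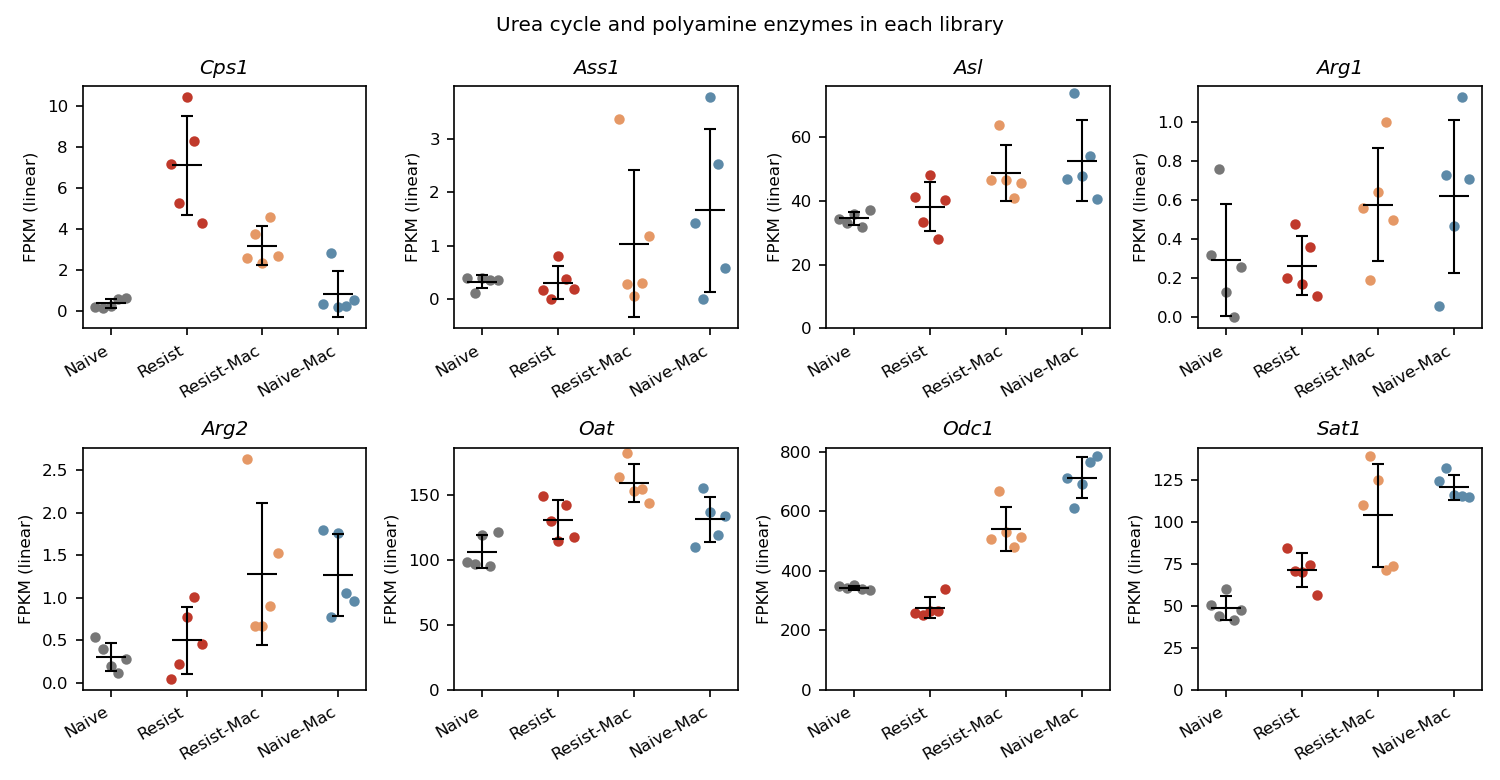
FPKM (linear scale, a separate axis for each gene) of the 8 enzymes with a row, in every library of the 4 groups; points are libraries, bars the mean ± SD of 5. Cps1 stood at 4.32 to 10.4 FPKM in Resist against 0.17 to 0.66 in Naive, while Asl, Oat and Odc1 differed far less and Ass1, Arg1 and Arg2 stayed below 4 FPKM throughout.

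Cps1 was at 0.23, 0.17, 0.28, 0.62 and 0.66 FPKM in the 5 Naive libraries and at 7.18, 5.28, 10.4, 8.31 and 4.32 FPKM in the 5 Resist libraries. The groups lay far apart, and their means were 0.392 ± 0.230 and 7.11 ± 2.43 FPKM (SD, n = 5 each), a ratio of 18.1. Resist-Mac libraries had 2.60, 3.78, 2.37, 4.58 and 2.69 FPKM, a mean of 3.20 ± 0.942 (SD, n = 5). Naive-Mac libraries had 0.35, 2.84, 0.22, 0.26 and 0.53 FPKM, and the 1 high value belonged to replicate 2. Cps1 was thus highest in Resist, followed by Resist-Mac and then by Naive-Mac and Naive, whose order by mean turned when Naive-Mac replicate 2 was left out, with Resist and Resist-Mac overlapping only at 4.32 and 4.58 FPKM, and with Naive and Naive-Mac overlapping through most of their range. On the log2(FPKM + 1) scale the difference between Resist and Naive was 2.50, and that between Resist and Resist-Mac 0.92 (0.64 to 1.39 over the alternatives run).

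Resist-Mac and Naive-Mac share no library with Resist vs. Naive, so here Cps1 was tested. It was chosen with the levels of all libraries known, however, and its mean passed the filter on low values through Resist-Mac. The p-values of Cps1 that follow are therefore not independent of that choice. Cps1 was higher in Resist-Mac by 1.32 ± 0.29 (log2 FPKM + 1, SE, n = 5 each), with an adjusted p of 0.00147 by limma. A limma value here comes from a moderated linear model over all genes that averaged 1 FPKM or more, with Benjamini-Hochberg adjustment, and a gene is called when its adjusted p is under 0.05 and its fold is over 1.5. In this comparison 37.2% of 9760 tested genes passed as higher in Resist-Mac and 9.0% as lower, and the median gene differed by 0.34. Cps1 exceeded that shift, but quantile normalization lowered its difference to 0.63 (adjusted p = 0.0955) and correcting for the length and GC content of transcripts brought it to 0.47 (adjusted p = 0.221), both by limma, and the call was lost. Without Naive-Mac replicate 2 the Naive-Mac mean was 0.340 ± 0.138 FPKM (SD, n = 4) and the difference was 1.63 (adjusted p = 1.84e-05 by limma), and with no filter on low values the adjusted p with all libraries was 0.00447 by limma. An exact two-sided permutation test of mean FPKM, which uses no filter and was added after the data were seen, gave p = 0.0317 with all libraries and p = 0.0159 without that library, the latter being the smallest p that 5 against 4 libraries allow.

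Among the genes whose levels followed Cps1 most closely over the 10 Naive and Resist libraries were Fbxo10, an F-box protein (Pearson r = 0.986), Dennd5a (0.982), Bmpr1b, a bone morphogenetic protein receptor (0.980), and Lancl1 (0.980). Since the 2 groups lie apart, these coefficients mostly carry the group difference. With each group centred on its own mean they were 0.781 to 0.878, and over the 10 depleted libraries, which share no library with the first 10 but span 2 batches, 0.755 to 0.936 (0.864 to 0.956 without Naive-Mac replicate 2). Among the other enzymes, the coefficient with Cps1 over the same 10 libraries was 0.836 for Sat1, 0.706 for Oat and -0.882 for Odc1, and between -0.10 and 0.35 for Ass1, Asl, Arg1 and Arg2. These are descriptions of libraries that share a batch and a group structure, with no test.

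The next question was whether the other enzymes of the set were higher with Cps1 in resistant cells. None of those tested was called so, and Asl was the only one of them from the cycle itself. The rest of the cycle could therefore not be judged as a whole. Of the 9 other enzymes, 4 passed the level filter in Resist vs. Naive (Asl, Oat, Odc1, Sat1), and 0 were called in either direction by limma at a fold over 1.5, against 5.25% (higher) and 1.11% (lower) of the 10119 genes tested. Regardless of fold, 3 of the 4 had an adjusted p under 0.05, and the same number had an unadjusted p under 0.05. Of these, 2 were higher (Sat1, Oat) and 1 lower (Odc1), where 12.5% of all tested genes were higher and 6.40% lower on that rule. None of the 4 separated the Naive from the Resist libraries completely, which 12.8% of tested genes did. A probability read from the noise between replicates, over 0.8 with a fold over 1.5, also called 0 of them, and 3.56% of tested genes.

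Asl, argininosuccinate lyase, was the only enzyme of the cycle itself besides Cps1 that was expressed well above the filter. It was at 34.4, 33.0, 35.8, 31.9 and 37.1 FPKM in Naive and at 41.3, 33.2, 48.1, 28.1 and 40.2 FPKM in Resist. Resist values lay on both sides of the Naive range, and the difference was 0.12 (95% interval -0.14 to 0.38, adjusted p = 0.494 by limma), which leaves out a change of 1.5-fold in either direction.

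Ass1, argininosuccinate synthetase, supplies the substrate of Asl. It was at 0.40, 0.12, 0.40, 0.37 and 0.36 FPKM in Naive, and at 0.18, 0, 0.81, 0.38 and 0.20 FPKM in Resist. The groups overlapped, and all of these values lay below the filter of 1 FPKM, so they were not tested. The arginases were as low. Arg1, the cytosolic form, ranged from 0 to 0.76 FPKM in Naive and from 0.11 to 0.48 in Resist. Arg2, the mitochondrial form, ranged from 0.12 to 0.54 and from 0.05 to 1.01 FPKM. Hepatocyte genes were looked at beside Cps1. Hnf4a, Apoa2 and Hpd were at group means of 0.05 FPKM or less in Naive and Resist. No row matched Alb or Serpina1a, and Pck1 was not listed for these groups. Tat was at means of 0.024 FPKM in Naive and 0.11 in Resist, and Apoa1 at 1.16 and 1.32. Ttr was at 7.44 to 11.1 FPKM in Naive and at 7.30 to 38.0 in Resist, with medians of 10.2 and 7.51, so that 1 Resist library carried its higher mean. Fah, the last enzyme of tyrosine breakdown, was at 1.71 to 3.30 and 4.27 to 9.10 FPKM.

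Odc1 and Oat, which use ornithine, were expressed far above the arginases, which make it. Otc, which also uses it, had no row. Sat1 and Asl, which neither use nor make ornithine, are ranked beside Odc1 and Oat here. In Naive cells the order was Odc1 (343 ± 6.30 FPKM, SD, n = 5), Oat (107 ± 13.0), Sat1 (48.7 ± 7.26) and Asl (34.5 ± 2.08), and the ranges of neighbours in this order did not overlap. The order was the same in Resist, again without overlap. FPKM is a level per transcript length, so these levels can be set side by side within a library.

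Odc1 was lower in Resist. It was at 348, 343, 351, 338 and 337 FPKM in Naive and at 257, 253, 265, 264 and 338 FPKM in Resist. The Naive libraries lay within a narrow band, 4 of 5 Resist libraries lay well below it, and Resist replicate 5 lay inside it. The difference was -0.33 ± 0.08 (log2 FPKM + 1, SE; adjusted p = 0.0122 by limma), a ratio of means of 0.801. Without Resist replicate 5 it was -0.40 (adjusted p = 0.000214 by limma), and it kept its sign and an adjusted p under 0.05 in all 20 alternatives that were run.

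Sat1 moved the other way. It was at 50.7, 43.9, 60.1, 41.5 and 47.3 FPKM in Naive and at 84.6, 71.1, 70.3, 74.5 and 56.8 FPKM in Resist. Only the highest Naive and the lowest Resist library overlapped. The difference was 0.54 ± 0.11 (log2 FPKM + 1, SE; adjusted p = 0.00679 by limma), just under the fold of 1.5. It passed that fold without Resist replicate 5 (0.62) and without Naive replicate 3 (0.62), and 1 enzyme was then called.

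Oat was at 98.8, 97.1, 119.7, 95.4 and 121.9 FPKM in Naive and at 149.5, 129.9, 114.9, 142.8 and 118.0 FPKM in Resist. The groups overlapped between 115 and 122 FPKM. The difference was 0.30 ± 0.10 (log2 FPKM + 1, SE; adjusted p = 0.0499 by limma), at the threshold, and 7 of 20 alternatives kept the adjusted p under 0.05.

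The promoters of the pair that moved in opposite directions, Odc1 down and Sat1 up, are shown from RefSeq (build GRCm38.p6; the expression tables themselves used mm9), each 250 bases before to 50 after the start of the gene. Capitals mark the GC box GGGCGG or CCGCCC and the E box CACGTG, searched on both strands. The Odc1 promoter lies on the plus strand at chr12:17544623-17544922 and the Sat1 promoter on the minus strand at chrX:155216400-155216699.
Odc1: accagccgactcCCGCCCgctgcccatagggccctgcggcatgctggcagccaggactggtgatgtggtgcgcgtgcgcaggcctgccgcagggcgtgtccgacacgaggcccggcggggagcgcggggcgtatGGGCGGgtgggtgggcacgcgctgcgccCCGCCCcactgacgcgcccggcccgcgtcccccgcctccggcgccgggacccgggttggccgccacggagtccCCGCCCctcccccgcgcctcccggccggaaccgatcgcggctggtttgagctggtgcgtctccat
Sat1: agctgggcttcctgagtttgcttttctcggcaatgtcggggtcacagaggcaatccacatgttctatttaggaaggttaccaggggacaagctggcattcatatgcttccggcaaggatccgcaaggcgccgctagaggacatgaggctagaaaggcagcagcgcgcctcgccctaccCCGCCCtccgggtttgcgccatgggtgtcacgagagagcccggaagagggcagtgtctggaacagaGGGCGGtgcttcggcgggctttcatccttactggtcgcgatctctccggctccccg

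The Odc1 window held 4 GC boxes and the Sat1 window 2, and neither held the E box. Sequence of these genes outside the windows was not searched. Over 32851 promoter windows of the same length, 35.7% held a GC box and 7.15% the E box. A match is a description of the sequence only. Promoter windows were at hand for 6 of the 10 enzymes.

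**Figure D2:**
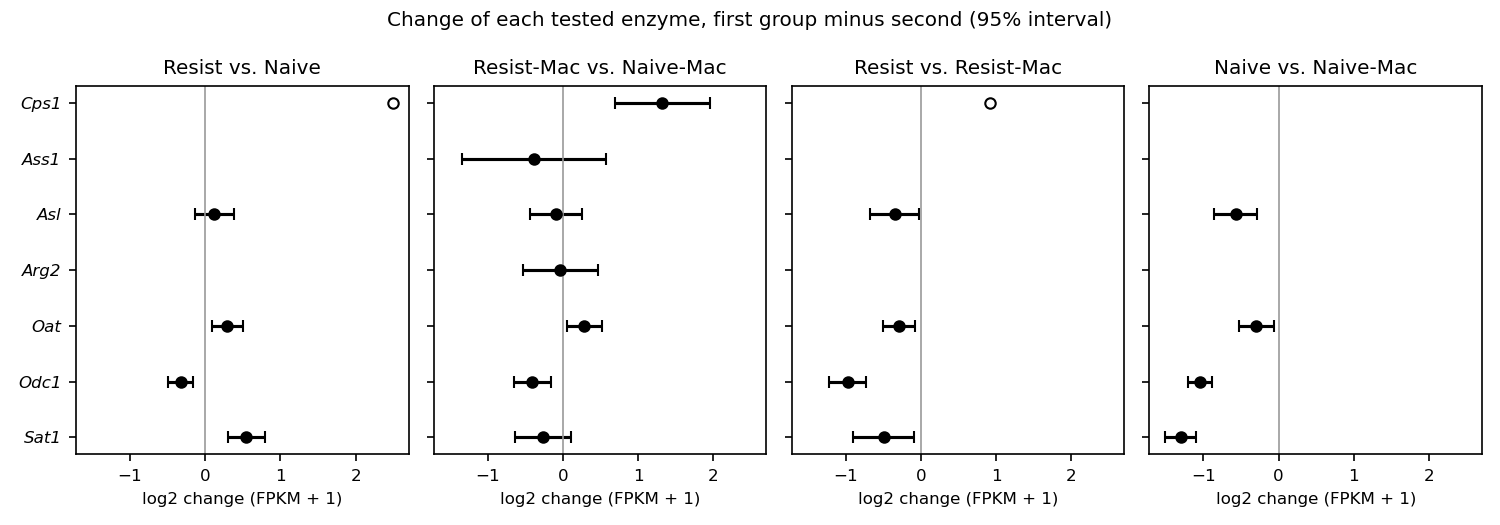
Log2 change of FPKM + 1, first group minus second, for each enzyme that passed the level filter in 4 comparisons; bars are 95% intervals from limma, and open points without a bar are Cps1 values that are described but not tested. In Resist vs. Naive, Odc1 lies below 0 at -0.33, Sat1 above it at 0.54 and Asl at 0.12 with an interval across 0.

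Odc1 and Oat compete for ornithine, so their ratio within a library was compared, a value that no rescaling of a whole library can move. The ratio of Odc1 to Oat FPKM was 3.52, 3.53, 2.94, 3.54 and 2.76 in Naive and 1.71, 1.95, 2.31, 1.84 and 2.86 in Resist. It was lower in Resist, with Resist replicate 5 inside the Naive range. The mean log2 ratio fell by 0.62 (exact two-sided permutation test, p = 0.0159, n = 5 each). In the depleted groups the ratio was 3.38 ± 0.271 in Resist-Mac and 5.54 ± 1.07 in Naive-Mac (SD, n = 5 each), and the ranges, 3.09 to 3.67 and 3.91 to 6.47, did not overlap. There the mean log2 ratio was lower in Resist-Mac by -0.69 (exact two-sided permutation test added after the data were seen, p = 0.00794, the smallest p that 5 against 5 libraries allow). Without Naive-Mac replicate 2 this difference was -0.81, and after the length and GC correction -0.89. The Resist-Mac and Naive-Mac libraries came from different batches, so their part in this difference cannot be told apart from the groups.

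**Figure D3:**
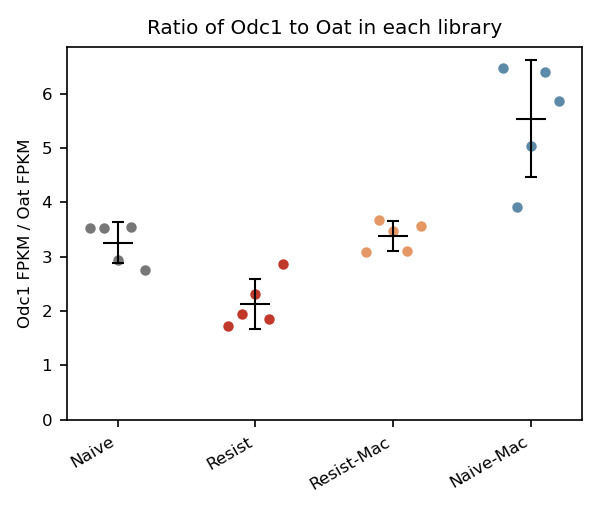
Ratio of Odc1 to Oat FPKM in each library of the 4 groups, on a linear axis from 0; points are libraries and bars the mean ± SD of 5. The ratio is 1.71 to 2.86 in Resist against 2.76 to 3.54 in Naive, and 3.09 to 3.67 in Resist-Mac against 3.91 to 6.47 in Naive-Mac.

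Against the depleted groups the enzymes were mostly lower in FPKM, but most of these differences depended on the scaling. In Resist vs. Resist-Mac, 1 of 4 tested enzymes other than Cps1 was called lower and 0 higher, against 12.0% (lower) and 9.71% (higher) of 10049 tested genes. The called enzyme was Odc1, at 253 to 338 FPKM in Resist and at 480 to 670 in Resist-Mac, a difference of -0.97 (adjusted p = 6.55e-05 by limma) that was -0.42 after quantile normalization and -0.52 after each library was rescaled to the same FPKM sum of 1000000. It was the 1 of 4 whose groups did not overlap, as did 29.7% of tested genes. Sat1 differed by -0.50 (adjusted p = 0.0476 by limma), but by 0.09 after the length and GC correction and by -0.05 after this rescaling. Oat differed by -0.29 (adjusted p = 0.0337 by limma) and turned to 0.02, 0.09 and 0.16 under the length and GC correction, quantile normalization and rescaling. Asl differed by -0.35 (adjusted p = 0.0779 by limma) and by 0.09 after rescaling.

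In Naive vs. Naive-Mac, 2 of 4 tested enzymes, Odc1 and Sat1, were called lower in Naive and 0 higher, against 22.1% (lower) and 37.5% (higher) of 9837 tested genes, the median gene differing by 0.23. Odc1 was at 337 to 351 FPKM in Naive and at 610 to 788 in Naive-Mac, a difference of -1.05 (adjusted p = 2.59e-08 by limma), but of -0.05 after quantile normalization. Sat1 was at 41.5 to 60.1 and at 115 to 132 FPKM, a difference of -1.30 (adjusted p = 4.63e-08 by limma), but of -0.20 after the length and GC correction. Odc1, Sat1 and Asl did not overlap between the groups, which held for 66.0% of tested genes. After rescaling to equal sums, Odc1 stood at 662 ± 17.1 in Naive and 761 ± 88.7 in Naive-Mac, and Sat1 at 93.9 ± 14.6 and 129 ± 8.58 (per 1000000 of summed FPKM, SD, n = 5 each), and 0 enzymes were called. Asl and Oat then turned from -0.57 to 0.27 and from -0.30 to 0.55. Without Naive-Mac replicate 2 the Odc1 difference was -1.10 and that of Sat1 -1.27.

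Resist-Mac vs. Naive-Mac compares treated with untreated cells in other libraries, where both groups were depleted of macrophages. Each group was a batch of its own, so batch and treatment cannot be told apart here. Of 6 tested enzymes other than Cps1, 0 were called at a fold over 1.5 by limma, and 2 had an unadjusted p under 0.05, against 37.2% (higher) and 9.0% (lower) of tested genes called. None of the 6 separated the groups completely, as 47.8% of tested genes did. Odc1 was lower by -0.41 (adjusted p = 0.00671 by limma) and turned to 0.10 and 0.06 after quantile normalization and rescaling to equal sums. Oat was higher by 0.28 (adjusted p = 0.0364 by limma) and turned to -0.13 with median-ratio scaling. Sat1 was at 71.2 to 140 FPKM in Resist-Mac and at 115 to 132 in Naive-Mac, a difference of -0.26 (95% interval -0.64 to 0.11, adjusted p = 0.203 by limma), which was -0.68 with median-ratio scaling (adjusted p = 0.0177 by limma, a call) and 0.25 after the length and GC correction. Without Naive-Mac replicate 2, Odc1 differed by -0.46, Oat by 0.35 and Sat1 by -0.23.

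Whether the difference between treated and untreated cells itself differed without and with depletion was tested by a contrast of all 4 groups, in which 51.9% of 9876 tested genes had an adjusted p under 0.05 and the median gene lay at -0.28. Among the enzymes other than Cps1, Sat1 was the 1 that passed. Its difference between Resist and Naive exceeded that between Resist-Mac and Naive-Mac by 0.81 (adjusted p = 0.0042 by limma), and by 0.78 without Naive-Mac replicate 2. The length and GC correction lowered this to 0.32 (adjusted p = 0.19) and rescaling to 0.41 (adjusted p = 0.0753, both by limma), and neither passed. Odc1 differed by 0.08 in this contrast, and turned to -0.38 with quantile normalization and -0.33 with rescaling. For Cps1 the contrast was 1.18, as a description.

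The lowly expressed enzymes Ass1 and Arg2 were higher in some libraries of the depleted groups, where neutrophil markers were high as well. Ass1 was at 3.37, 0.28, 0.06, 0.30 and 1.19 FPKM in Resist-Mac, beside summed neutrophil markers of 8775, 998, 406, 2465 and 4883 FPKM. In Naive-Mac it was at 1.43, 0, 3.78, 2.52 and 0.58 FPKM, beside sums of 4880, 58.8, 6159, 3864 and 761 FPKM. In both groups the library with the highest neutrophil sum had the highest Ass1 and the library with the lowest sum had the lowest Ass1. Arg2 was at 2.64, 0.67, 0.67, 0.91 and 1.53 FPKM in Resist-Mac and at 1.80, 0.77, 1.76, 1.06 and 0.96 FPKM in Naive-Mac. The highest Arg2 values likewise fell in libraries with high sums. Arg2 did not follow the sums throughout, since Naive-Mac replicate 2, with the lowest sum, had 0.77 FPKM. Naive libraries had 0.12 to 0.54 FPKM and Resist libraries 0.05 to 1.01. Between the depleted groups Ass1 differed by -0.39 (95% interval -1.35 to 0.57) and Arg2 by -0.03 (95% interval -0.54 to 0.47), with adjusted p of 0.466 and 0.906 by limma. Without Naive-Mac replicate 2 these were -0.69 and -0.12. Over the alternatives Ass1 ranged from -0.93 to -0.12 and never passed, while Arg2 was at -0.71 with quantile normalization (adjusted p = 0.0158 by limma, a call) and at 0.37 after the length and GC correction. All 10 neutrophil markers had a mean over 1 FPKM in both depleted groups, and 8 of 10 did in Naive and in Resist. Of 12 macrophage markers, 6 had a mean over 1 FPKM in Resist-Mac and 3 in Naive-Mac, with sums of 39.2 to 888 and 5.39 to 540 FPKM. In Naive and in Resist 4 did, with sums of 19.0 to 116 and 4.26 to 62.7 FPKM. On average Lyz2 made up most of the macrophage sum, at 304 FPKM in Resist-Mac and 223 in Naive-Mac, followed by Cd14 (28.7 and 9.86). Csf1r (1.13 and 0.318), Adgre1 (0.274 and 0.154) and Mrc1 (0.084 and 0.03) were far lower, so the sum says little about them. Within each depleted group the macrophage sum, too, was highest and lowest in the same libraries as Ass1. The part of such cells in these values was not tested, and a larger share of a cell type cannot be told from more RNA per cell.

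**Figure D4:**
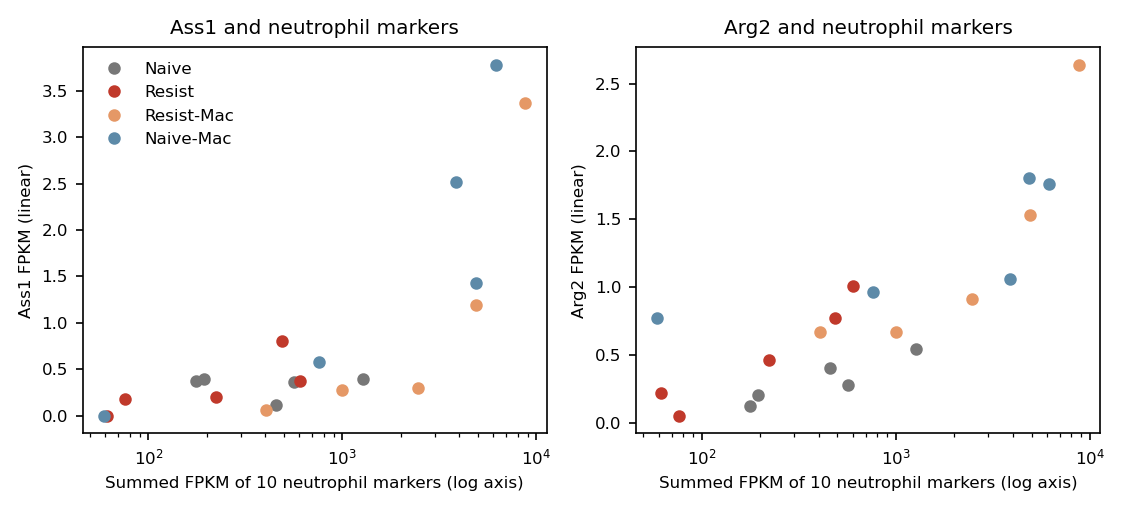
FPKM of Ass1 (left) and Arg2 (right), on linear axes, against the summed FPKM of 10 neutrophil markers on a log axis; each point is a library, coloured by group. Ass1 stays at or below 0.81 FPKM in the Naive and Resist libraries and reaches 3.37 and 3.78 FPKM in the depleted libraries with the highest marker sums.

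Genes around the 10 enzymes were read from 5 lists with 48 genes, of which 33 passed the filter in Resist vs. Naive. Of these, 4 were called higher and 1 lower, and their median difference was -0.10, against 0.03 for all genes tested, of which 5.25% were called higher and 1.11% lower. Of 10 genes of arginine and citrulline use, 3 passed the filter, and these 3 were called higher. Of the others, Nos2 was at 0.07 to 0.39 FPKM in Naive and 0.06 to 0.31 in Resist, and Padi4 at 0.07 to 0.93 and 0.03 to 0.55. Padi2, which converts arginine residues of proteins to citrulline, was at 1.98 to 4.21 FPKM in Naive and at 4.48 to 15.6 in Resist, a difference of 1.36 (adjusted p = 0.00432 by limma). Ddah2, of the dimethylarginine hydrolase family, was at 7.80 to 10.7 and 11.5 to 29.4 FPKM, a difference of 0.98 (adjusted p = 0.00498 by limma). Gamt, which completes creatine synthesis, was at 0.29 to 1.14 and 1.33 to 2.17 FPKM, a difference of 0.79 (adjusted p = 0.00622 by limma). Gamt passed the filter only through its level in Resist, and with no filter its adjusted p was 0.0115 by limma. The groups did not overlap for any of the 3, as for 12.8% of tested genes.

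Of 12 tested genes of polyamine synthesis, catabolism and control, 0 were called at a fold over 1.5 in Resist vs. Naive by limma, and their median difference was -0.10. Regardless of fold, 1 had a higher level at an adjusted p under 0.05, the antizyme Oaz2 (0.36), a protein family that binds ornithine decarboxylase and leads it to breakdown. The 2 with a lower level were Dohh (-0.27) and its substrate Eif5a (-0.26), the translation factor that carries hypusine, an amino acid made from spermidine. On that rule 12.5% of all tested genes were higher and 6.40% lower. The polyamine synthases Srm (-0.34, adjusted p = 0.12 by limma) and Sms (-0.13, adjusted p = 0.38 by limma) did not pass. In Resist vs. Resist-Mac, 6 of the 12 were called lower and 0 higher, with a median of -0.58 against -0.02 for all genes tested, of which 12.0% were called lower and 9.71% higher. This count depended on the scaling. After the length and GC correction 3 were called lower, against 477 of all 10027 genes tested. With quantile normalization it was 2, against 808 of 10049. Rescaling to equal sums gave 2 lower and 1 higher, against 242 lower and 3334 higher of 10049.

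Of 9 tested genes of ornithine, proline and glutamate interconversion, 1 was called higher in Resist. It was Gls2, a glutaminase, at 2.22 to 3.20 FPKM in Naive and 3.22 to 5.57 in Resist (0.59, adjusted p = 0.00792 by limma). This lay just over the fold of 1.5, and the call was lost with median-ratio scaling (0.56), quantile normalization (0.43), the length and GC correction (0.48) and without Resist replicate 3 (0.55) or 4 (0.52) or Naive replicate 1 (0.57), 2 (0.58) or 5 (0.56), while the adjusted p stayed under 0.05. Got2, the mitochondrial aspartate aminotransferase, differed by -0.29 (adjusted p = 0.0026 by limma), under the fold of 1.5. Of 6 tested carriers, 1 was called lower, Slc25a13, the mitochondrial aspartate-glutamate carrier citrin that supplies aspartate to Ass1 in liver. It was at 57.1 to 69.5 FPKM in Naive and 36.9 to 44.8 in Resist, without overlap (-0.69, adjusted p = 0.00019 by limma). Slc25a15, the mitochondrial ornithine carrier, differed by -0.07 (adjusted p = 0.64 by limma).

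Carbamoyl phosphate is also made in the cytosol by Cad, the first enzyme of pyrimidine synthesis, and Cad was expressed far above Cps1. It was at 239, 297, 253, 289 and 294 FPKM in Naive and at 202, 171, 206, 178 and 252 FPKM in Resist. Resist replicate 5 alone reached the Naive range, and the difference was -0.45 (adjusted p = 0.0119 by limma), opposite in sign to that of Cps1. The 2 following enzymes, Dhodh (-0.10) and Umps (-0.31), did not pass (adjusted p = 0.63 and 0.11 by limma).

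In Resist-Mac vs. Naive-Mac, whose libraries are not those of Resist vs. Naive, Padi2 differed by 1.48 (adjusted p = 0.00544 by limma) and Slc25a13 by -0.65 (adjusted p = 0.000916 by limma). The Padi2 call was lost with quantile normalization (0.81) and the length and GC correction (0.54), and the Slc25a13 call after rescaling to equal sums (-0.19). With a replicate left out Slc25a13 ranged from -0.75 to -0.56, and at -0.56 it lay under the fold of 1.5, so that call was lost as well. Ddah2 (-0.09), Gamt (0.35) and Gls2 (0.24) did not pass there (adjusted p = 0.715, 0.29 and 0.391 by limma), and each changed sign under at least 1 scaling. Cad differed by 1.13 (adjusted p = 6.53e-05 by limma) and turned to -0.30 after the length and GC correction (adjusted p = 0.0187 by limma). Without Naive-Mac replicate 2, Padi2 differed by 1.83, Slc25a13 by -0.70, Gamt by 0.50, Gls2 by 0.39, Cad by 1.19 and Ddah2 by -0.01.

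**Figure D5:**
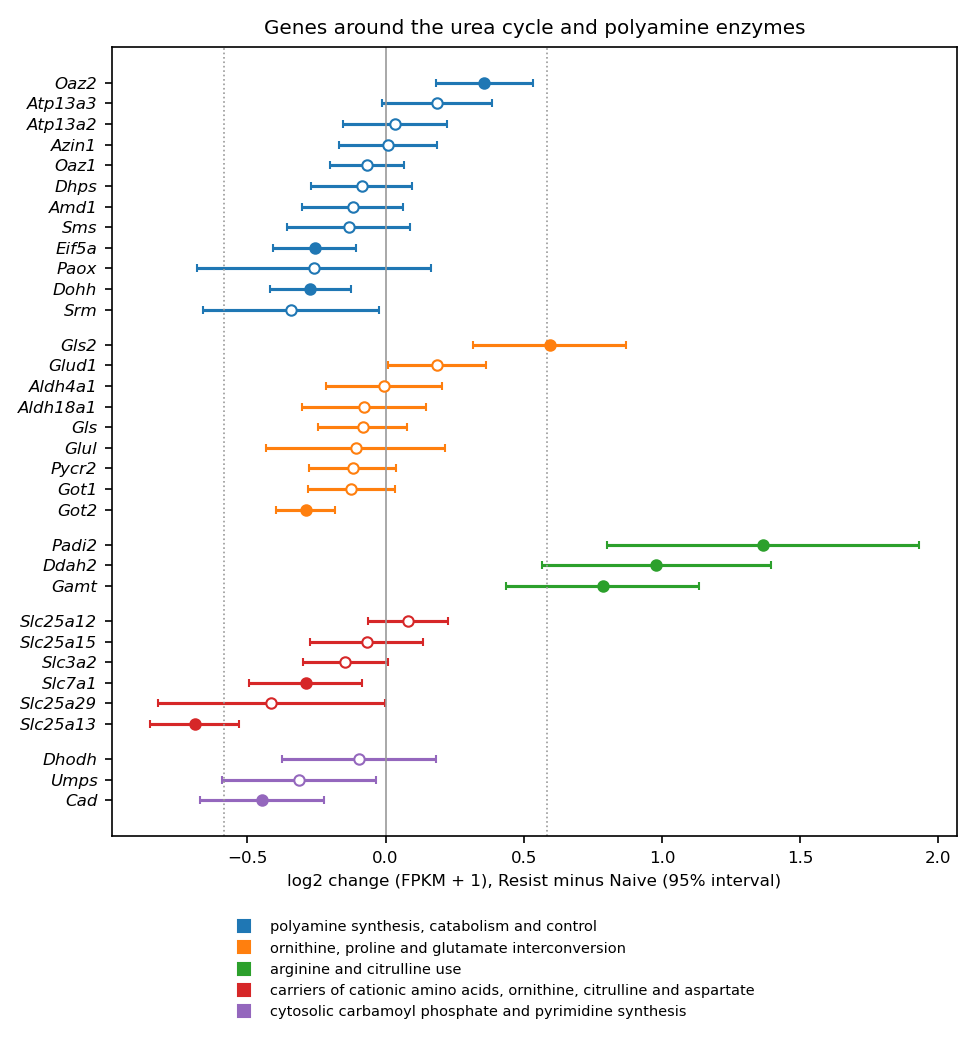
Log2 change of FPKM + 1, Resist minus Naive, with 95% intervals from limma, for the 33 tested genes of 5 lists, coloured by list; filled points have an adjusted p under 0.05 and dotted lines mark a fold of 1.5. Padi2, Ddah2 and Gamt lie to the right at 1.36, 0.98 and 0.79, Slc25a13 lies to the left at -0.69, and the points of the polyamine genes stay within the dotted lines.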

How the data were processed

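RNA was measured in 20 libraries of sorted cells, poly(A)-selected and read as paired 150-base reads. The authors deposited log2(FPKM + 1) for Naive and Resist, and linear FPKM for Resist-Mac and for Naive-Mac, in 3 tables from 3 batches. The submitters' processing notes name Bowtie2 and the build mm9; the quantification tool and annotation are not given in the sources used here. Log2 values were turned back to FPKM, 752 rows of unannotated transcripts were left out, and Entrez IDs were matched to symbols. Depth is unknown, since FPKM holds no counts; low values are the least precise.

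Groups were taken from the sample titles. The model was limma (version 3.58.1, R 4.3.3) with a variance trend on log2(FPKM + 1), so fold changes of low genes are understated, over genes averaging 1 FPKM or more in the libraries compared. Calls needed a fold over 1.5 and an adjusted p (Benjamini-Hochberg) under 0.05; the 4-group contrast used the p alone. Ratios were tested by exact permutation (scipy 1.17.1). The limma step was tested on simulated data. Replicate numbers did not pair libraries, whose p-values measure the spread between pools. The study itself used a noise-based probability, run here as an alternative with other scalings, filters, pseudocounts and each library left out.

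All 10 enzymes were named; from each list at most 6 called genes by size, and others chosen after their values were seen; for Cps1, the 5 genes with the highest Pearson r, of which 1 is not reported here. The enzymes and lists were chosen with earlier results of these data known. Rescaling to equal FPKM sums and 2 permutation tests were added after the data were seen.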

Additional observations from a re-analysis of the deposited data

Results flagged for a closer look

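Within groups of 5, 7 of 60 sets of values held a library far from the others, where chance gives about 3. They were Cps1 in Naive-Mac (replicate 2, 2.84 FPKM), Padi2 in Naive-Mac (replicate 2, 4.68 FPKM), Odc1 in Resist (replicate 5, 337.7 FPKM), Odc1 in Resist-Mac (replicate 2, 669.6 FPKM), Asl in Resist-Mac (replicate 2, 63.8 FPKM), Ass1 in Naive (replicate 2, 0.12 FPKM) and Slc25a13 in Naive (replicate 5, 57.1 FPKM).

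For 3 genes the difference between treated and untreated cells was not the same without and with macrophage depletion, by the limma contrast of the 4 groups. Sat1 had a contrast of 0.81 (adjusted p = 0.0042), Ddah2 one of 1.07 (adjusted p = 0.00441), and Cad one of -1.58 (adjusted p = 2.72e-06) that was -0.35 (adjusted p = 0.0896) after the length and GC correction, also by limma. Sat1 lost the call under that correction too, at 0.32 (adjusted p = 0.19 by limma), while Ddah2 kept an adjusted p under 0.05 in all 29 alternatives run. Batch and depletion cannot be told apart in these contrasts, and 51.9% of all genes tested passed.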

How the results depend on the processing

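In Resist vs. Naive, Odc1, Sat1 and Asl kept their direction and their side of an adjusted p of 0.05 in all 20 alternatives run for each. Oat kept its direction (0.25 to 0.36) and passed in 7 of 20. The number of the 9 other enzymes called there was 3 with no fold threshold, 1 with each library rescaled to the same FPKM sum (Sat1), and 0 to 1 when each replicate was left out. In Resist vs. Resist-Mac it was 3 with no fold threshold, 0 with quantile normalization, 0 with rescaling and 1 to 2 with a replicate left out (2 without Resist-Mac replicate 4 or 5). In Naive vs. Naive-Mac it was 4 with no fold threshold, 4 with median-ratio scaling, 1 with quantile normalization, 1 with the length and GC correction, 0 with rescaling and 2 to 4 with a replicate left out (4 without Naive-Mac replicate 5). In Resist-Mac vs. Naive-Mac it was 2 with no fold threshold, 2 with median-ratio scaling, 1 with quantile normalization, 1 with rescaling and 0 whichever replicate was left out. In the 4-group contrast it was 2 with median-ratio scaling, 2 with quantile normalization, 0 with the length and GC correction, 2 with rescaling and 1 whichever replicate was left out. The cause of these shifts was not tested.

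Values that changed sign came from comparisons across tables. With quantile normalization these were Oat in Resist vs. Resist-Mac (0.0925), Oat in Naive vs. Naive-Mac (0.18), Odc1 (0.10), Gamt (-0.39) and Gls2 (-0.51) in Resist-Mac vs. Naive-Mac, and Oat (-0.0722) and Odc1 (-0.38) in the 4-group contrast. With the length and GC correction they were Oat (0.0185) and Sat1 (0.0907) in Resist vs. Resist-Mac, Oat in Naive vs. Naive-Mac (0.13), Arg2 (0.37), Sat1 (0.25), Cad (-0.30) and Gls2 (-0.14) in Resist-Mac vs. Naive-Mac, and Oat in the contrast (-0.0851). With median-ratio scaling they were Oat (-0.13) and Gls2 (-0.0697) in Resist-Mac vs. Naive-Mac. With rescaling to equal sums they were Asl (0.0915) and Oat (0.16) in Resist vs. Resist-Mac, Asl (0.27) and Oat (0.55) in Naive vs. Naive-Mac, Asl (0.36), Arg2 (0.24), Odc1 (0.0606), Sat1 (0.20) and Ddah2 (0.36) in Resist-Mac vs. Naive-Mac, and Asl (-0.18), Oat (-0.39) and Odc1 (-0.33) in the contrast. With a replicate left out, signs changed within the ranges of Asl (-0.197 to 0.0304, the latter without Naive-Mac replicate 2), Arg2 (-0.219 to 0.0617) and Ddah2 (-0.176 to 0.106) in Resist-Mac vs. Naive-Mac, and of Oat in the contrast (-0.052 to 0.0729), none of which passed the test with all libraries. Rescaling put the median gene at 0.40, 1.01 and 0.76 in Resist vs. Resist-Mac, Naive vs. Naive-Mac and Resist-Mac vs. Naive-Mac.

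The replicate numbers did not pair the libraries. In Resist vs. Naive the same-numbered libraries correlated by -0.16 to -0.03 and none matched its own number best. With the replicate block the difference of the log2 ratio of Odc1 to Oat stayed -0.62, with p = 0.125 in an exact test of sign flips, whose smallest p over 5 pairs is 0.0625. With a replicate left out the ratio ranged from -0.73 to -0.55 (exact permutation p 0.0159 to 0.0317). In FPKM without counts, the precision of Cps1, Ass1, Arg1 and Arg2 near 0 cannot be given.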
